A study of Rattus norvegicus with 15 samples.

Results

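Vgf and the sensory neuropeptides were followed in dissociated rat dorsal root ganglion (DRG) cells over a time course of dibutyryl cAMP (dbcAMP), a membrane-permeable analog of cAMP. The genes were chosen by symbol from the platform annotation. Of 10 genes sought, Vgf, Npy, Gal, Adcyap1, Vip, Tac1, Calca, Sst, Nts and Penk, 9 had a probe and Nts had none, and these are 9 of the 4153 genes named by a single symbol on the arrays. Vgf and Calca had 2 probes each and the other 7 genes had 1, which gave 11 probes, and all 11 had a ratio on all 15 arrays. L4 and L5 ganglia of juvenile rats were plated on poly-L-lysine or myelin, and the labels do not give the substrate of each array. Cells received 1.5 mM dbcAMP or medium alone for 1, 3, 6, 12 or 18 h, with 3 arrays at each of the 5 times. Treated RNA (Cy5) and control RNA (Cy3) shared each array, so every value is a log2 ratio of treated over control cells and not a level of expression. Neither strain nor sex is given, and the treatment protocol lists 0 h where the labels of the first group say 1 h.

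Neuropeptides are made as larger precursors, cut by proprotein convertases in the regulated secretory pathway, stored in dense-core granules and released to act on G protein-coupled receptors. In the DRG, CGRP (from Calca) and substance P (from Tac1) mark peptidergic nociceptors, whereas galanin, NPY, VIP and PACAP are low in intact ganglia and are known to rise after peripheral nerve injury. VGF is a neurotrophin-inducible granule protein and peptide precursor. A rise in cAMP activates protein kinase A, which phosphorylates CREB, a factor that binds the cAMP response element (CRE), and the genes of VGF, somatostatin, VIP and enkephalin are textbook examples of genes with such an element.

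Promoters of the genes are shown because the treatment acts on this pathway. Windows of 300 bases, from 250 bases before to 50 after the start that the RefSeq table (build GRCr8) uses, were given for 8 of the 9 measured genes, with Penk the exception. The full CRE, TGACGTCA, was in 2 of these 8 windows, those of Vgf and Sst, and in 1.83% of all 33469 windows. The shorter core TGACG, which the full element also holds and which was sought on both strands, was in 6 of the 8 and in 21.2% of all windows. The AP-1 motif TGANTCA was in 0 of the 8 and in 7.33% of all windows. Below are the 120 bases before the start of Vgf, Npy, Gal and Vip, 5′ to 3′ on the strand of the gene, and 29 bases around the CRE of Sst, with TGACG or its reverse complement in capitals.
Vgf, minus strand, chr12:25277021-25277140: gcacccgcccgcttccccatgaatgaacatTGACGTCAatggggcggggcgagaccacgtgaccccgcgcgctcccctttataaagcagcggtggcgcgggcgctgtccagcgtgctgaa
Npy, plus strand, chr4:80211991-80212110: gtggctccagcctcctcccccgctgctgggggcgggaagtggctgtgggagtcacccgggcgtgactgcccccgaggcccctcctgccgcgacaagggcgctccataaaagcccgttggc
Gal, minus strand, chr1:210084573-210084692: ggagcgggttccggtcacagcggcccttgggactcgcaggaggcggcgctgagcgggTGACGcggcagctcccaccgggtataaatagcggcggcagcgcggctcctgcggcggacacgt
Vip, plus strand, chr1:44470360-44470479: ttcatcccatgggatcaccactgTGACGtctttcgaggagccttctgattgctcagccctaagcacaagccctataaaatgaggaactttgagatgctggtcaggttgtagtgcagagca
Sst, plus strand, chr11:90461537-90461565: gcctccttggcTGACGTCAgagagagagt
The CRE of Vgf begins 90 bases before the start and that of Sst 2 bases after it, while the core of Gal begins 63 and that of Vip 97 bases before it. The starts used for Vgf and Vip lie inside the spans of these genes (chr12:25274004-25281803 and chr1:44470232-44478561), not at their ends. The window of Npy holds neither the full element nor its core. A match describes letters in a window and not a site in use.

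At 18 h of dbcAMP, 3 of the 11 probes passed the test. Npy rose to 2.33 times and probe 1D09 of Vgf to 2.04 times the control signal, Gal fell to 0.592 of it, and both probes of Calca, Tac1 and Sst lay near equal signal in the 2 channels. By limma with Benjamini-Hochberg adjustment over all 5006 probes tested at 18 h, 22% of probes passed at an adjusted p under 0.05 (10.6% higher, 11.3% lower), so that 3 of 11 is a share near that of all probes. The median log2 ratio of the 11 probes was -0.08 at 18 h and that of all probes 0.01. At 1 h and at 3 h 0 of the 11 passed, and 1 had an unadjusted p under 0.05 at each time (Penk at 1 h, Tac1 at 3 h), with 2.33% and 2.87% of all probes called. At 6 h and at 12 h, 1 passed, Vgf probe 1D09 both times, against 4.19% and 8.58% of all probes. Tests that used only the arrays of a time without moderation, the methods' t-test, called 0 of the 11 after adjustment at every time, with 4 at an unadjusted p under 0.05 at 18 h, and called 1 of all probes at 18 h.

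The spread of the arrays bears on all these counts. The log2 ratios of an array had an SD of 0.357 to 0.434 on 9 arrays. It reached 0.627 to 0.703 on the wide ones, which were array 3 of 6 h, arrays 1 and 2 of 12 h and all 3 of 18 h. Whether the 3 arrays of a time stand for separate cultures is unstated, and p-values then measure array-to-array spread, which may be technical. Dyes were never swapped, so a constant dye bias would stay in every ratio at a time and cancel in differences between times.

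**Figure D1:**
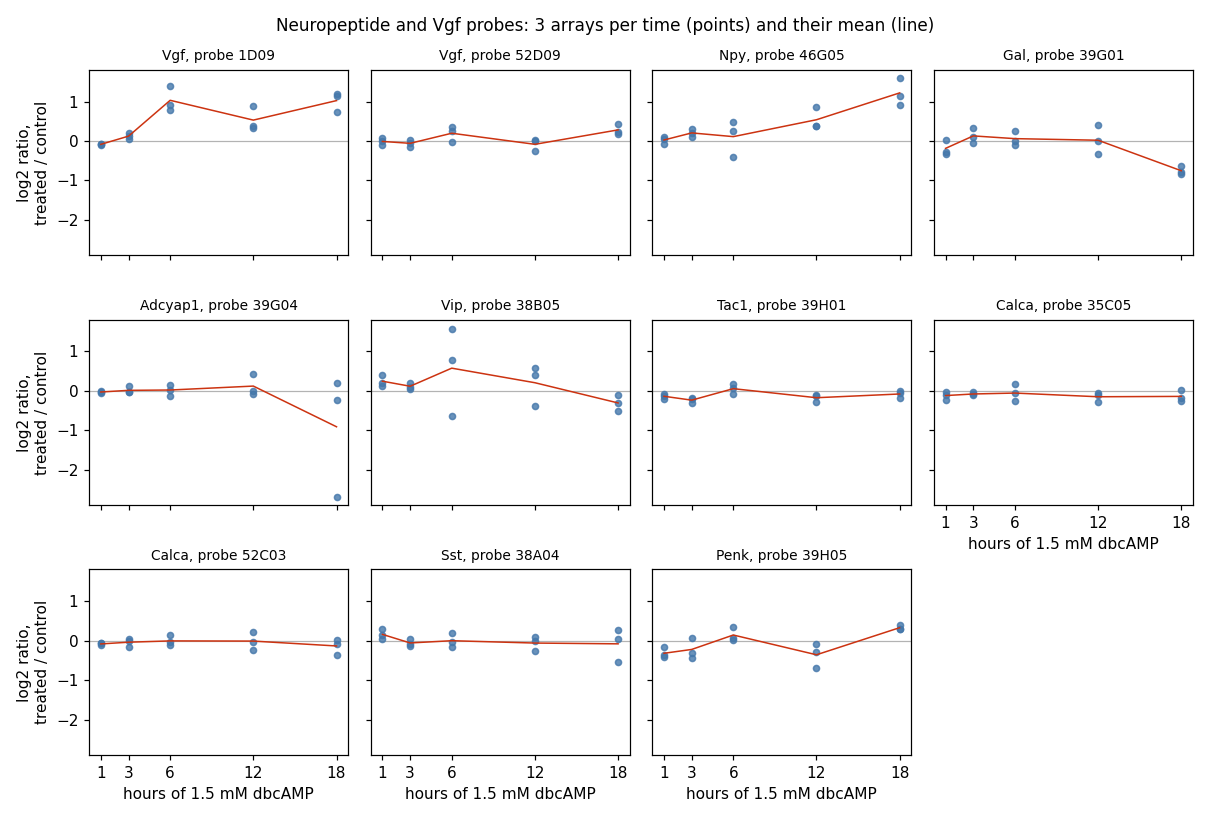
The 11 probes over time, with hours in 1.5 mM dbcAMP on the horizontal axis and the treated over control ratio, as log2, on the vertical axis. Points are single arrays, 3 per time, and lines join their means. Vgf probe 1D09 and Npy lie above 0 on all 3 arrays of 18 h, Gal lies below 0 on all 3, and the mean of Adcyap1 at 18 h is set by a single array at -2.69.

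Vgf (chr12:25274004-25281803 in GRCr8) had the only probe of the 11, 1D09, that passed at 6 h and at 12 h in the fit over all arrays. Probe 1D09 had log2 ratios of -0.07, -0.07 and -0.11 on the 3 arrays of 1 h, and of 0.05, 0.19 and 0.13 on those of 3 h. At 6 h the arrays were at 1.39, 0.93 and 0.78, at 12 h at 0.88, 0.38 and 0.33, and at 18 h at 1.18, 0.74 and 1.15. All arrays from 6 h on were above all arrays of 1 h and 3 h, and the lowest array of 6 h lay above the 2 lower arrays of 12 h. The 3 arrays averaged 1.03 ± 0.32 (SD) at 6 h, with an adjusted p = 0.000844 by limma. The average was 0.53 ± 0.31 at 12 h, where limma's adjusted p was 0.0314, and 1.03 ± 0.25 at 18 h, a fold change of 2.04 (limma's adjusted p was 0.000206). The call at 12 h was lost without array 1 (log2 ratio 0.35, adjusted p = 0.24) and without array 2 (0.60, adjusted p = 0.0615), and array 1 is of wide spread, as is array 2.

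The time course of probe 1D09 differed between times. The mean at 6 h was 1.12 above that at 1 h (standard error 0.19, adjusted p = 0.0461 by limma), where 0.139% of all probes passed. The mean at 18 h was 1.11 above that at 1 h (standard error 0.19, adjusted p = 0.0107), where 2.74% passed, and limma's F test over all times gave an adjusted p = 0.0171, where 1.87% passed. The comparisons of 6 h and 18 h share the arrays of 1 h. With any 1 replicate number left out, so that each time had 2 arrays, neither passed. The log2 difference for 6 h was then 0.95 to 1.23 (adjusted p = 0.533 to 0.611) and for 18 h 1.04 to 1.26 (adjusted p = 0.115 to 0.128). With a common spread for all arrays the difference for 18 h was 0.79 (adjusted p = 0.179). The means of 12 h and 18 h were 0.50 apart, which did not pass (95% interval 0.07 to 0.92, adjusted p = 0.254). At 18 h the plate of this probe, 1 of 53 plates of 96 probes, had a median log2 ratio of 0.10, and 1D09 stood at place 97 of 5006 from the top.

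The other probe of Vgf, 52D09, gave smaller ratios. Its 3 arrays were at 0.07, -0.01 and -0.10 at 1 h, at 0.01, -0.15 and -0.04 at 3 h, at 0.26, -0.02 and 0.35 at 6 h, at 0.00, -0.27 and 0.02 at 12 h, and at 0.24, 0.43 and 0.18 at 18 h. Only at 18 h were all 3 arrays above 0 and above all arrays of 1 h. The mean at 18 h was 0.28 (95% interval 0.06 to 0.50, adjusted p = 0.0686 by limma). The median of plate 52, which holds this probe, was -0.34 at 18 h and -0.13 at 1 h. Relative to the plate medians the 18 h mean was 0.61 (adjusted p = 0.000997 by limma). Between times the probe did not pass. Its 18 h mean was 0.29 above that at 1 h (adjusted p = 0.337 by limma), and the F test over all times gave an adjusted p = 0.436. The difference from 1 h also missed the threshold in the alternative fits (adjusted p = 0.108 to 0.657). Within arrays, 1D09 exceeded 52D09 by 0.84 ± 0.36 at 6 h, by 0.61 ± 0.29 at 12 h and by 0.74 ± 0.37 at 18 h (SD, n = 3 each), on all 9 arrays of these times. Over the 15 arrays the ratios of the 2 probes had a Pearson correlation of 0.58.

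Npy (chr4:80212111-80219310), the precursor of neuropeptide Y, rose at 18 h. Probe 46G05 was at 0.06, 0.10 and -0.09 on the arrays of 1 h, at 0.20, 0.10 and 0.31 at 3 h, and at 0.26, 0.47 and -0.40 at 6 h. At 12 h it was at 0.38, 0.86 and 0.38, and at 18 h at 1.14, 1.60 and 0.92. The lowest array of 18 h lay above the highest array of every earlier time, and at 6 h array 3, the wide array of that time, was the only array below 0. The mean was 0.54 ± 0.28 at 12 h (SD, n = 3, adjusted p = 0.0632 by limma) and 1.22 ± 0.34 at 18 h (adjusted p = 0.000208), a fold change of 2.33. At 12 h it passed relative to plate medians, at 0.60 (adjusted p = 0.0226), on plate 46 with a median of -0.08. Npy exceeded its 1 h value by 1.20 at 18 h (standard error 0.23, limma's adjusted p was 0.0161), and the F test over the 5 times gave an adjusted p = 0.0574. With any 1 replicate number left out this difference was 1.05 to 1.29 (adjusted p = 0.0654 to 0.215), and with a common spread 0.78 (adjusted p = 0.16), which did not pass. Npy stood at place 53 of 5006 from the top at 18 h, on plate 46, whose median was -0.10.

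Gal (chr1:210079709-210084572), the precursor of galanin, was the only one of the 11 probes to pass in the lower direction. Probe 39G01 was at 0.04, -0.32 and -0.28 on the arrays of 1 h, at 0.32, 0.11 and -0.04 at 3 h, at 0.01, 0.27 and -0.10 at 6 h, and at -0.01, 0.40 and -0.34 at 12 h. At 18 h the arrays were at -0.78, -0.85 and -0.64. All 3 arrays of 18 h lay below all 12 arrays of the earlier times, where the signs were mixed at each time. The mean at 18 h was -0.76 ± 0.11 (SD, n = 3, adjusted p = 0.00156 by limma), a ratio of 0.592. Fitted to the 18 h arrays without the other times, Gal missed the threshold (adjusted p = 0.0613). Compared with 1 h, the log2 ratio at 18 h was different by -0.57 (adjusted p = 0.148), and compared with 12 h by -0.77 (95% interval -1.19 to -0.36, adjusted p = 0.085, where 0.622% of all probes passed). The plate of this probe, 39, had a median of -0.12 at 18 h, and relative to plate medians Gal was at -0.64 (adjusted p = 0.00905).

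Penk, the precursor of the enkephalin opioid peptides, had means on both sides of 0 over the course and passed at no time. Probe 39H05 was at -0.43, -0.36 and -0.17 on the arrays of 1 h, at 0.07, -0.30 and -0.43 at 3 h, at 0.35, 0.06 and 0.02 at 6 h, at -0.08, -0.70 and -0.29 at 12 h, and at 0.41, 0.30 and 0.29 at 18 h. It was below 0 on all 3 arrays of 1 h and of 12 h, and above 0 on all 3 arrays of 6 h and of 18 h. The mean was -0.32 at 1 h (adjusted p = 0.386 by limma) and 0.33 ± 0.07 at 18 h (SD, n = 3, adjusted p = 0.0858), and relative to plate medians it was 0.44 at 18 h (adjusted p = 0.0329). Penk was 0.65 higher on the log2 scale at 18 h than at 1 h (95% interval 0.25 to 1.05, adjusted p = 0.0836 by limma). It was 0.69 higher at 18 h than at 12 h, which did not pass (adjusted p = 0.103 by limma). Over the 15 arrays, which share spread and handling, its ratios correlated with those of Vgf at 0.75 for probe 1D09 and 0.77 for probe 52D09, the 2 highest of the 55 pairs among the 11 probes, whose median correlation was -0.05.

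Adcyap1 and Vip encode PACAP and VIP, related peptides that raise cAMP through shared receptors. Probe 39G04 of Adcyap1 was within 0.05 of 0 on all 3 arrays of 1 h, and at -0.24, -2.69 and 0.19 on the arrays of 18 h. The mean at 18 h was -0.91 ± 1.56 (SD, n = 3, adjusted p = 0.0912 by limma). It rested on array 2, and was -0.02 without it. The 95% interval, -1.70 to -0.12, uses a spread estimated over all times and not that of the 18 h arrays alone. Fitted to the 18 h arrays without the other times, the adjusted p was 0.418 by limma. Without array 3 the mean was -1.46 (adjusted p = 0.0171 by limma). That call used the shared spread too, and its arrays were at -0.24 and -2.69. Between 1 h and 12 h the means of Adcyap1 lay from -0.03 to 0.12.

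Probe 38B05 of Vip was at 0.13, 0.40 and 0.20 on the arrays of 1 h and at 0.05, 0.19 and 0.11 on those of 3 h. At 6 h the arrays were at 1.57, 0.79 and -0.63, at 12 h at 0.40, -0.38 and 0.59, and at 18 h at -0.51, -0.31 and -0.11. The 3 arrays of 6 h were unequal, and array 3, the one below 0, is the wide array of that time. The mean at 6 h was 0.58 ± 1.12 (SD, n = 3, adjusted p = 0.332 by limma). Without array 3 it was 1.18 (adjusted p = 0.0132), and array weights gave 1.04 (adjusted p = 0.011). At 18 h all 3 arrays were below 0, at a mean of -0.31 (95% interval -0.94 to 0.32, adjusted p = 0.492).

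The peptides of resting nociceptors and somatostatin did not pass at any time. Tac1, the substance P precursor, had means between -0.24 (3 h, adjusted p = 0.294 by limma) and 0.06 (6 h), and at 18 h was at -0.08 (95% interval -0.27 to 0.11). At 3 h it was below 0 on all 3 arrays, at -0.19, -0.21 and -0.31, and scaled so that all arrays had the same spread, it passed there, at -0.35 (adjusted p = 0.0221). Calca encodes CGRP and calcitonin by alternative splicing. Its probe 35C05 had means between -0.15 and -0.06 and its probe 52C03 between -0.13 and 0.00 over the 5 times. At 18 h the 95% intervals were -0.36 to 0.08 for 35C05 and -0.37 to 0.11 for 52C03, and the 2 probes had a correlation of -0.51 over the 15 arrays. Probe 52C03 is on plate 52, whose median was -0.34 at 18 h. Its 18 h mean ran from -0.14 to 0.20 over the alternative fits. Sst, the somatostatin precursor, had means between -0.08 and 0.16, and the arrays of 18 h were at -0.55, 0.03 and 0.28 (95% interval of the mean -0.38 to 0.22). Vgf and Sst were the genes of this set with a full CRE in the window, and Penk had no window. Their 18 h means were 1.03 and 0.28 for the probes of Vgf and -0.08 for Sst. No difference between these probes was tested.

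**Figure D2:**
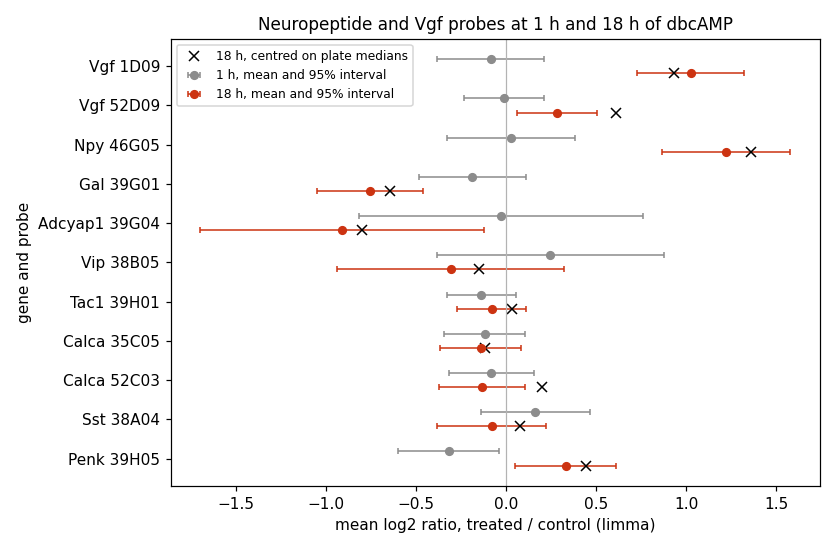
Mean log2 ratio of treated over control cells over 3 arrays (horizontal axis) for each gene and probe (vertical axis). Grey is 1 h, red is 18 h, and crosses are the 18 h mean relative to plate medians. The 95% intervals are from limma, with the spread of each probe estimated over all 15 arrays. Vgf 1D09 and Npy lie above 1 at 18 h and Gal at -0.76, and the cross of Vgf 52D09 lies at 0.61.

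The likeness of other probes to these patterns was taken as the Pearson correlation over the 15 arrays, among 4271 other probes with a single symbol and a ratio on all arrays. It is a description, since all probes share arrays. Vgf probe 1D09 was most like Tnfaip6, a hyaluronan-binding protein (0.89, log2 ratio 3.14 at 18 h), Plat, tissue plasminogen activator (0.87, 1.04 at 18 h), and Cd151, a tetraspanin (0.86, 0.31 at 18 h). Vgf probe 52D09 was most like Lamc1 (0.87), Kcnip1 (0.85) and Smarca4 (0.82), and none of these 3 genes is among the 3 of probe 1D09. Npy was most like a probe of Mt1, a metallothionein (0.94, 0.74 at 18 h), Col18a1 (0.94, 1.34 at 18 h) and Gzmb (0.89, 1.88 at 18 h). Gal was most like Gpc1, a glypican (0.88, -0.69 at 18 h), Parm1 (0.83, -1.20 at 18 h) and Cryaa, a lens crystallin (0.82, -1.55 at 18 h, though already at -0.97 at 1 h).

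Of the other neuropeptide precursors sought, 31 of 43 genes had a probe, and 2 of 31 probes were higher and 3 lower at 18 h by limma, 16.1% where 22% of all probes passed. Gast, gastrin, was at 0.48 and Trh, thyrotropin-releasing hormone, at 0.99, its arrays at 0.24, 2.10 and 0.63. Npvf was at -0.92, Nppc, C-type natriuretic peptide, at -0.51 with 1 of 3 arrays above 0, and Cck, cholecystokinin, at -0.69 after -0.48 at 1 h and -1.38 at 6 h (limma's adjusted p was 0.0039 at 6 h). The medians of the plates were low for some of these probes, at -0.25, -0.51 and -0.43 at 1, 6 and 18 h for Cck (plate 36) and -0.30 at 18 h for Npvf (plate 51). Of the probes called higher, Trh is also on plate 36, and Gast is on plate 34, with a median of -0.02 at 18 h. For 18 h minus 1 h 0 of the 31 passed, where 2.74% of all probes passed.

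Probes of granule proteins and of processing enzymes were counted as a further list. Of 26 probes of 24 genes, 3 were higher and 1 lower at 18 h, 15.4% against 22% of all probes, and the median was 0.11. Cpd, a carboxypeptidase that trims basic residues, was at 0.41, Syt7, a calcium sensor of granule release, at 0.45, and Ptprn2, a granule membrane protein, at 0.53, having passed already at 1 h with 0.75 (limma's adjusted p was 0.0137). Chgb, the granin chromogranin B, was at -0.37 ± 0.05 (SD, n = 3, adjusted p = 0.0299). The plate medians at 18 h were 0.13 for Cpd, 0.22 for Syt7, 0.21 for Ptprn2 and -0.12 for Chgb. Syt4, a synaptotagmin of granules, named after its values were seen, was called earlier, at 0.68 at 3 h (limma's adjusted p was 0.0111) and 1.23 at 6 h (0.000194), and was at -0.11 at 18 h. None of the 26 passed for 18 h minus 1 h, where 2.74% of all probes passed.

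Among receptors of these peptides, 2 of 29 probes were higher and 3 lower at 18 h, 17.2% against 22% of all probes. Sort1, sortilin, which binds neurotensin and sorts proteins, was at 1.01, and Oprl1, the nociceptin receptor, at 0.69. Tacr1, the substance P receptor, was at -0.43 after -0.45 at 1 h, Vipr1 at -0.62, and Oprk1, the kappa opioid receptor, at -0.53. The plate median at 18 h was 0.21 for Sort1 and -0.12 for Oprl1, Tacr1, Vipr1 and Oprk1. Peptidases that cut released peptides had 3 of 11 probes higher and 0 lower, 27.3% in all, with a median of 0.33. Ece1 was at 1.20 and Mme, neprilysin, at 0.93, after 0.77 and 0.69 at 1 h, and Ide was at 0.56 after -0.23. Here the plate median at 18 h was 0.13 for Ece1 and Mme and 0.19 for Ide. For 18 h minus 1 h 0 receptor and 0 peptidase probes passed, where 2.74% of all probes passed.

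**Figure D3:**
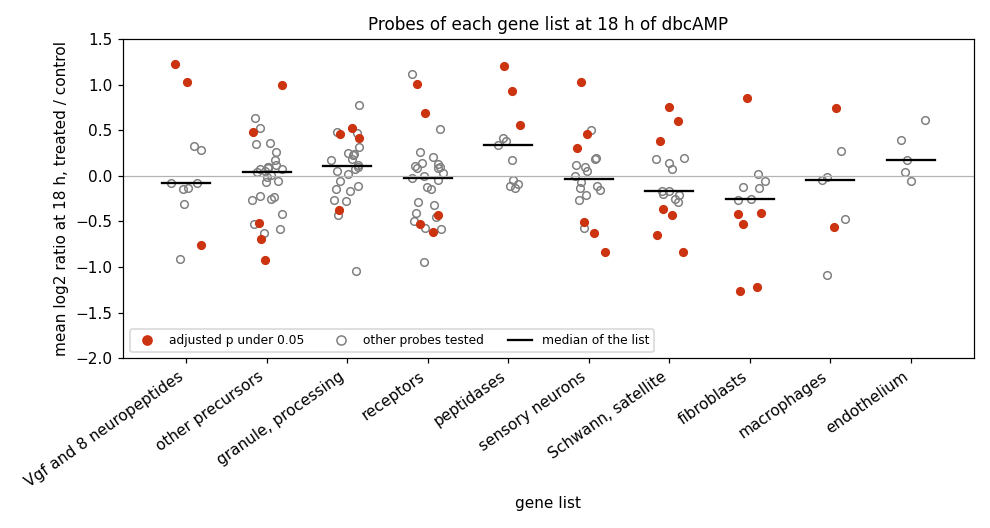
Probes of the neuropeptide genes and of each other gene list (horizontal axis), each point a probe's mean treated over control log2 ratio from the 18 h arrays (vertical axis). Filled points passed limma at an adjusted p under 0.05, open points did not, and horizontal bars are the medians, at -0.08 for Vgf and the neuropeptides and 0.33 for the peptidases.

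Markers of the cell types in such cultures were also among the probes called at 18 h, and their part in the ratios of the neuropeptides was not tested. In a mixed culture, fewer cells of a type and less RNA per cell cannot be told apart, and ratios do not show which cell types were present. Of 20 probes of sensory neuron markers, 3 were higher and 3 lower, with a median of -0.04 and a range of -0.84 to 1.03, and the smallest p-values were those of Uchl1 at -0.84, Ntrk2 at -0.63 and Stmn2 at -0.51, the last on plate 43 with a median of -0.51. The 3 called higher, named after their values were seen, were Elavl4 at 0.45, Scn11a at 0.30 and probe 27F06 of Nefl at 1.03. At 1 h these 3 were at 0.11, 0.46 (adjusted p = 0.0234 by limma) and 0.89. The other Nefl probe was at -0.01 at 18 h. Of 17 probes of Schwann cell and satellite glia markers, 3 were higher and 4 lower (median -0.17, range -0.83 to 0.75), led by Cnp at -0.65, Kcnj10 at 0.75 and Egr2 at 0.60. Of 12 probes of fibroblast markers, 1 was higher and 5 lower (median -0.26, range -1.26 to 0.85), led by S100a4, at -1.26 and -1.22 for its 2 probes, then Col1a1 at -0.53 for probe 33G03 and Dcn at -0.42. The other Col1a1 probe was at -0.14 (limma's adjusted p was 0.663), and the fibroblast probe called higher was that of Pdgfra at 0.85, also named after its value was seen. The called share was 30% for sensory neuron, 41.2% for glial and 50% for fibroblast probes, where it was 22% for all probes. Between 1 h and 18 h, 0 of 19 sensory neuron probes and 1 of 17 glial probes (Cnp) passed. Of the 12 fibroblast probes 2 passed, both of S100a4, and 2.74% of all probes passed. Of 7 macrophage probes, 1 was higher and 1 lower (median -0.04, range -1.09 to 0.74), C1qb at 0.74 and Lyz2 at -0.56, and of 5 endothelial probes 0 passed at an adjusted p under 0.05 (median 0.18, range -0.06 to 0.61).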

How the data were processed

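Spotted oligonucleotide arrays in 2 colours were used, with dendrimer labelling. The authors deposited 1 linear ratio of treated (Cy5) over control (Cy3) cells per probe and array. How they corrected background and normalized: not given in the sources used here. Array medians lay between 0.997 and 1.02, and the log2 ratios were not centred. The platform annotation named the probes, and 4423 of 5088 probes had 1 symbol, 2 had several and 663 had none. All 15 arrays entered a single fit with a mean for each time and a spread per probe shared by all times (limma 3.58.1, R 4.3.3). A probe was tested where at least 2 of 3 arrays had a ratio, p-values were adjusted by Benjamini-Hochberg over all probes tested, and tests were two-sided. The fit was tested on simulated data. The 3 arrays per time limit the precision. Every probe of the chosen genes was described, with up to 8 called genes of each pathway list, up to 3 of each marker list by p-value, and the 3 most alike probes of Vgf, Npy and Gal. Members and lists were chosen with earlier results of these data known. Alternatives were a replicate block, fits to single times, centring on array or plate medians, a common spread for all arrays, the methods' t-test, array weights, stricter filtering and leaving out arrays. Plots used matplotlib 3.10.9.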

Additional observations from a re-analysis of the deposited data

Results flagged for a closer look

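Vgf probe 1D09 differed between times by limma, with the log2 ratio 1.12 higher at 6 h than at 1 h (adjusted p = 0.0461) and 1.11 higher at 18 h than at 1 h (adjusted p = 0.0107), with 3 of 3 arrays of each later time above all arrays of 1 h. Npy was 1.20 higher at 18 h than at 1 h (adjusted p = 0.0161), also with 3 of 3 arrays above all of 1 h. All 3 differences missed the threshold with any 1 replicate number left out.

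Among the pairs of times that were not tested, some had all 3 arrays of one time on the opposite side of 0 from all 3 arrays of the other. Pairs that were tested but did not pass are left out here. Vip was above 0 at 3 h and below 0 at 18 h, a difference of -0.42 on the log2 scale. Penk was above 0 at 6 h and below 0 at 12 h, a difference of -0.50. The median of its plate, 39, was 0.01 at 6 h and -0.17 at 12 h.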

How the results depend on the processing

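The 67 values of single probes, 11 at each time and for 18 h minus 1 h and Vgf 1D09 for 6 h minus 1 h, had 804 recomputed values, of which 759 kept their sign and side of the threshold or moved less than the spread, 30 no longer passed, 13 newly passed, 2 moved across 0 without a call and 0 called values changed sign. The number of the 11 probes called at 18 h was 3, and 5 relative to plate medians (Penk and Vgf 52D09 added), 5 without the 3 wide arrays of 6 h and 12 h, 2 from the 18 h arrays alone (Gal lost), and 0 by the methods' t-test, which called 1 of all probes. Without 1 array it was 3 to 4. At 3 h the count of 0 became 1 with a common spread for all arrays and 1 with array weights. At 6 h the count of 1 became 0 from the arrays of that time alone and 0 by the methods' t-test, 2 with array weights and 2 without the wide arrays, and 1 to 2 without 1 array. At 12 h it became 2 with the replicate block and 2 relative to plate medians (Npy added in both), and 0 with a common spread, from the arrays of the time alone, by the methods' t-test, with array weights and without the wide arrays, and 0 to 1 without 1 array. For 18 h minus 1 h the count of 2 became 0 with a common spread, 1 from the arrays of both times alone and 0 by the methods' t-test, and 0 without any 1 replicate number, which leaves 2 arrays per time. The F test called 1, 0 with a common spread, 2 relative to plate medians and 2 with the replicate block. Of all probes it called 93, and 44, 71 and 52 in the same order. The cause of these changes was not tested, and some fits had fewer arrays. The fit without the 3 wide arrays of 6 h and 12 h kept the 3 wide arrays of 18 h. The replicate block changed no other count, but took the 6 h minus 1 h difference of Vgf 1D09 to an adjusted p = 0.0662. Of all probes, 1101 were called at 18 h, 1003 relative to plate medians and 1491 without the 3 wide arrays. The 18 h count was 422 with a common spread and 183 from the 18 h arrays alone. At 3 h 145 were called, 442 with a common spread and 566 with array weights. At 6 h 212 were called, 281 with array weights, 146 without the wide arrays and 10 from that time alone. At 12 h 430 were called, 394 with the block and 326 relative to plate medians. That count was 256 with a common spread, 232 with array weights and 5 from that time alone. For 18 h minus 1 h it was 137, 11 with a common spread, 48 from both times alone and 38 by the methods' t-test. Scaling to a common spread lowered the 18 h values to 0.66 for Vgf 1D09, 0.80 for Npy and -0.50 for Gal, and all 3 still passed. Same-numbered arrays of different times had correlations of -0.06 to 0.06 of their deviations, and other arrays of -0.05 to 0.10. These values showed no pairing by number. Each value is a ratio within an array, in which an effect common to both channels cancels, so pairing is not excluded.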
